A study of Rattus norvegicus with 9 samples.

Results

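The peroxisome proliferator-activated receptors (PPARs), their dimer partner and their coactivators were examined in the renal cortex of diabetic rats of the ZDF fa/fa strain. They comprised 7 genes of the 18420 in the table, picked by symbol: the receptors Ppara, Ppard and Pparg, the partner Rxra, the coactivators Ppargc1a and Ppargc1b, and the orphan receptor Esrra. The ZDF fa/fa strain carries a leptin receptor defect and becomes obese and diabetic. All 9 libraries came from 1 treatment group, labelled Medical Bypass, and each was deposited as a separate replicate. No other group was analysed here, so no effect of the treatment can be read from these values. The labels give neither the agents nor the ages, and do not say which rat each replicate came from, so p-values measure only the spread between these samples. The 7 genes were proposed with values of these libraries in view, and their levels are therefore a description.

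PPARs are nuclear receptors that bind fatty acids and their derivatives and act on DNA as dimers with a retinoid X receptor such as Rxra. In proximal tubule, a segment that burns fatty acids for energy, Ppara is known for driving peroxisomal and mitochondrial fatty acid oxidation genes, while Pparg is best known as the master regulator of adipocytes. Ppargc1a and Ppargc1b (PGC-1α and PGC-1β) bind these receptors and Esrra (ERRα), and through them raise genes of mitochondrial respiration.

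The 250 bases before the annotated start were read from RefSeq on the GRCr8 build for 4 of the genes that the results turn on, since 3 of these genes ran together over the replicates and Esrra ran opposite to Ppara and Ppargc1a. The table held a promoter for 6 of the 7 genes. Capitals mark the 2 motifs that were found: the cAMP response element TGACGTCA, which CREB binds, and the GC box GGGCGG, which Sp1 binds, on either strand. The window of Ppara is chr7:118712357-118712606 (plus strand), that of Rxra chr3:31387642-31387891 (plus strand), that of Ppargc1a chr14:63634058-63634307 (plus strand) and that of Esrra chr1:213543306-213543555 (minus strand).
Ppara: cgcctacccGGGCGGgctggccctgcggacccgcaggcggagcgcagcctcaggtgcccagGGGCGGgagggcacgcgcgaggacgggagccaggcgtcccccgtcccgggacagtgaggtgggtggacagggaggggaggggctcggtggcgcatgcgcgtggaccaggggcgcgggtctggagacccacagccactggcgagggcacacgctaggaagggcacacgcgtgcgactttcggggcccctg
Rxra: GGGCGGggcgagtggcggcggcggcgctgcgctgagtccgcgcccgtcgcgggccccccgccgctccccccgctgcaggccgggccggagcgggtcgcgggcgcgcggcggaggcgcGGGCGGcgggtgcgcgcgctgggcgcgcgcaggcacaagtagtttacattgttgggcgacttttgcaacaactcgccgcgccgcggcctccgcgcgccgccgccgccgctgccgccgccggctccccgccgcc
Ppargc1a: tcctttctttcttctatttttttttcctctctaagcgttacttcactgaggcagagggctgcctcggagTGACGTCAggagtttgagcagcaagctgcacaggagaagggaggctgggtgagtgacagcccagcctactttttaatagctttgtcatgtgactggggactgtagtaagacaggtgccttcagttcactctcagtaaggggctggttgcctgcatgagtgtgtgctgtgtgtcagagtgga
Esrra: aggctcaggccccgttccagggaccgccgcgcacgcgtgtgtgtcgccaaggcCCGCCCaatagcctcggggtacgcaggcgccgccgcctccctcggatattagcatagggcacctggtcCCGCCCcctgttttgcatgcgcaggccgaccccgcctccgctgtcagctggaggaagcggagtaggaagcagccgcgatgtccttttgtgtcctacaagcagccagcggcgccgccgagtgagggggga
The Ppargc1a promoter held the cAMP response element with its first base at position -181 from the start, a motif present in 1.59% of the 33469 rat promoters searched. Ppara, Rxra and Esrra each held 2 GC boxes, which 30.5% of all promoters hold at least once. Their GC contents were 76% for Ppara, 82.8% for Rxra and 68.8% for Esrra, while Ppargc1a had 50.4%, near the median of 51.2% over all promoters. The nuclear receptor half-site AGGTCA (14.1% of promoters), the direct repeat of 2 such half-sites spaced by 1 base (DR1, 0.0508%), the ERR element TCAAGGTCA (0.388%) and the E-box CACGTG (5.59%) were searched on both strands. None of these stood in a promoter of the 6 genes. The half-site is contained in the ERR element and in the spaced pair, so those matches overlap.

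Libraries held between 10757440 reads in genes (replicate 3) and 43071223 (replicate 8). Values are reads divided by the size factor of the library, not corrected for gene length, so levels are compared between replicates and not between genes. All 7 genes passed the minimum mean of 10. A library measure varied between replicates: the multi-mapped share, or the percentage of counted reads with several places in the genome. It was 14.9% in replicate 2, 15.2% in replicate 6, 15.5% in replicate 3 and 15.8% in replicate 9. The others had 16.8% to 22.1%, the highest in replicate 5. The widest gap lay between replicate 1 (19.2%) and replicate 5 (22.1%), not between these sets of replicates. Markers of the tissue were abundant: proximal tubule Cubn averaged 13497 ± 3139 and thick ascending limb Umod 57070 ± 13125 reads per size factor (SD, n = 9). Replicate 1 had the lowest sum over the 7 measured proximal tubule markers and the highest sums over the thick ascending limb, principal cell, macrophage and adipocyte markers. In whole cortex, fewer cells of a type and less RNA per cell cannot be told apart.

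Ppara, the receptor of fatty acid oxidation, spanned a 4.23-fold range. Its levels were 162, 584, 466, 275, 199, 687, 327, 272 and 474 in replicates 1 to 9, with a mean of 383 ± 179 (SD, n = 9). Replicates 6, 2, 9 and 3 were the highest, in that order, and replicate 1 the lowest. Rxra, its dimer partner, moved far less, over a 1.83-fold range. Its levels were 764, 1189, 1342, 925, 979, 1401, 995, 987 and 1295, with a mean of 1098 ± 217 (SD, n = 9). Replicates 2, 3, 6 and 9 again held the 4 highest values and replicate 1 the lowest.

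Ppard, the widely expressed receptor, had the highest coefficient of variation of the 7, 57.9%, and a 4.87-fold range. It stood at 647, 429, 408, 745, 1988, 914, 638, 1379 and 1671 in replicates 1 to 9 and averaged 980 ± 567 (SD, n = 9). Replicates 5, 9 and 8 were the high ones, an order that does not follow Ppara. Pparg was scarce, with 237 reads in all 9 libraries together. Its levels were 31.9, 24.9, 1.99, 35.6, 24.9, 15.7, 19.97, 16.9 and 14.3, and the mean was 20.7 ± 10.1 (SD, n = 9). Replicate 3, the shallowest library, held 1 Pparg read, and the exact Poisson 95% interval of its level was 0.0504 to 11.1 (counting error only). The next lowest level, 14.3 in replicate 9, had an interval of 7.15 to 25.6, which overlaps it. Without replicate 3 the range of Pparg was 2.49-fold.

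Ppargc1a, the inducible coactivator, had levels of 677, 997, 1280.0, 522, 371, 1341, 505, 458 and 1431 in replicates 1 to 9, a 3.85-fold range (mean 842 ± 422, SD, n = 9). Replicates 9, 6, 3 and 2 were the highest and replicate 5 the lowest. Ppargc1b, its close relative, stood at 75.1, 139, 119, 111, 86.4, 156, 69.9, 68.0 and 133 (mean 106 ± 32.8, SD, n = 9). The same 4 replicates led it, with replicate 4 close behind. Esrra, the receptor that PGC-1 coactivators work through, stood at 1953, 1353, 1133, 1438, 3677, 1634, 2147, 2251 and 1192 (mean 1864 ± 791, SD, n = 9). Replicate 5 stood apart at the top, and replicates 3 and 9 were lowest.

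**Figure D1:**
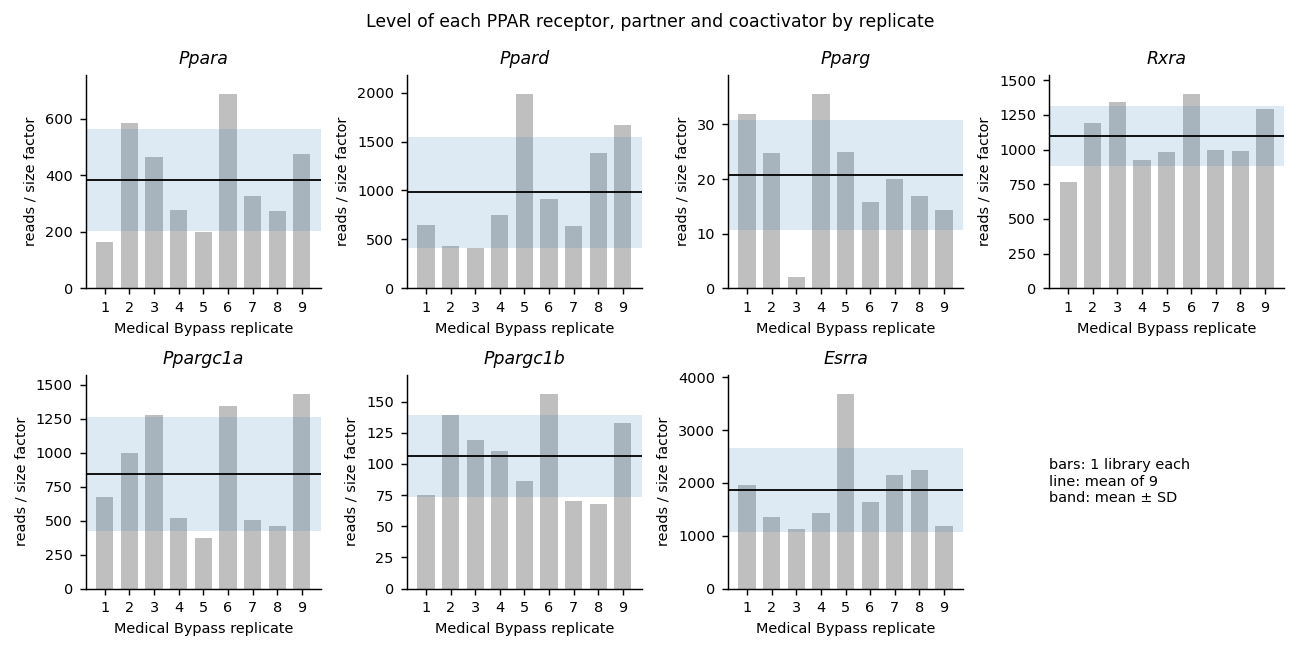
Level of each gene in reads divided by the size factor (vertical axis, from 0) in each Medical Bypass replicate (horizontal axis); a bar is 1 library, the line the mean and the band the mean ± SD of 9. Replicates 2, 3, 6 and 9 hold the 4 highest bars for Ppara, Rxra, Ppargc1a and Ppargc1b, while replicate 5 tops Ppard at 1988 and Esrra at 3677.

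That the 4 highest values fell in the same 4 replicates was shared by Ppara, Rxra, Ppargc1a and Ppargc1b, and not by Ppard, Pparg or Esrra. Across the table, 14.4% of the 13647 genes past the minimum mean had their 4 highest values in those replicates, and 8.92% their 4 lowest. Esrrg, a relative of Esrra, was among the first, and Rxrb, a relative of Rxra, among the second. The variance of each gene over replicates was also set against the trend of variance on level. It was 10.1 times the trend for Ppard (rank 111 of 13647), 8.11 for Ppargc1a (rank 202), 5.60 for Ppara (rank 518), 4.61 for Esrra, 4.27 for Pparg, 1.45 for Ppargc1b and 1.31 for Rxra. Single replicates carried part of this: Pparg stood at 0.957 times the trend without replicate 3 (rank 7678), and Esrra at 2.60 times without replicate 5. An F test set each variance against a trend and prior spread that limma had fitted to the same 13647 genes. No gene of 13647 (0%) passed that F test at an adjusted p of 0.05, and 573 (4.2%) had an unadjusted p under 0.05. Because the reference came from these same genes, the count cannot show that no gene varied unusually.

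The 21 pairs of the 7 genes were then compared over the 9 replicates. A pair was counted when the limma slope of log2(level + 1) of either gene on the other passed an adjusted p of 0.05 over all genes tested. By that rule 9 pairs passed. The 6 positive pairs were all those among Ppara, Rxra, Ppargc1a and Ppargc1b, and the 3 negative ones set Esrra against Ppara, Ppargc1a and Ppargc1b. Passing a slope was common among all genes: 21.5% of 13646 passed on Ppara, 39.4% on Ppargc1a, 25.3% on Ppargc1b, 8% on Rxra and 42.5% on Esrra. The count on Rxra, 1091 genes, was 1 without replicate 6, 2 without replicate 9, 65 without replicate 3, 223 without replicate 7, 430 without replicate 8, 434 without replicate 2, 1818 without replicate 4 and 1864 without replicate 1. That on Ppargc1b, 3457 genes, was 1070 without replicate 8, 1350 without replicate 9 and 1989 without replicate 2. The total on Rxra was 3513 with libraries scaled to the same total and 145 with library size as a covariate. The total on Esrra, 5794 genes, was 3840 with library size as a covariate. With the multi-mapped share as a covariate, limma called 0 genes on Rxra (976 at an unadjusted p under 0.05), 0 on Ppargc1b (1356) and 1 on Esrra.

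Ppara and Rxra were the closest pair, with Pearson r = 0.920 (exact permutation p = 0.000901), Spearman rho = 0.883 (exact p = 0.00308) and a limma adjusted p of 0.0120. Without replicates 1 and 6, the farthest from the median of Ppara, r was 0.826. Receptor and partner thus ran together although Rxra spanned the smaller range. For Ppara and Ppargc1a, r was 0.785 (exact p = 0.0175), rho 0.733 (exact p = 0.0311), limma's adjusted p 0.00558, and r 0.902 without those replicates. Ppara and Ppargc1b had r = 0.809 (exact p = 0.0126), rho = 0.817 (exact p = 0.0108), a limma adjusted p of 0.0127, and r = 0.711 without them.

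The coactivators also ran with each other, with r = 0.802 (exact p = 0.0184), rho = 0.783 (exact p = 0.0172), a limma adjusted p of 0.0122, and r = 0.681 without replicates 6 and 9. Esrra ran opposite to Ppargc1a, the coactivator it is known to partner. Their r was -0.813 (exact p = 0.00677), rho -0.833 (exact p = 0.00827), limma's adjusted p 0.00391, and r -0.853 without replicates 6 and 9. These 5 pairs passed in each of the 9 fits that left out 1 replicate, with adjusted p of up to 0.0393.

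The other 4 pairs were less firm. Rxra with Ppargc1a (r = 0.775, exact p = 0.0193, limma adjusted p = 0.0194) failed without replicate 6, at an adjusted p of 0.0565. Rxra with Ppargc1b (r = 0.780, exact p = 0.0182, limma adjusted p = 0.0368) passed in 4 of 9 such fits. Ppara with Esrra (r = -0.650, exact p = 0.0554, limma adjusted p = 0.0404) passed in 3 of 9, and Ppargc1b with Esrra (r = -0.666, exact p = 0.0462, limma adjusted p = 0.0458) in 2 of 9. Each adjusted p given for a pair is the lower of the 2 directions of the fit. In the other direction Rxra with Ppargc1b (limma adjusted p = 0.0642), Ppara with Esrra (0.0618) and Ppargc1b with Esrra (0.0579) did not pass. Ppard and Pparg were in no pair that passed. Between Ppara and Ppard r was -0.289 (exact p = 0.440, limma adjusted p = 0.455). Ppard with Esrra had r = 0.541 (exact p = 0.130) and a limma adjusted p of 0.131, which came to 0.00367 without replicate 9. Pparg with Rxra had r = -0.642 (exact p = 0.0473) and a limma adjusted p of 0.0953.

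**Figure D2:**
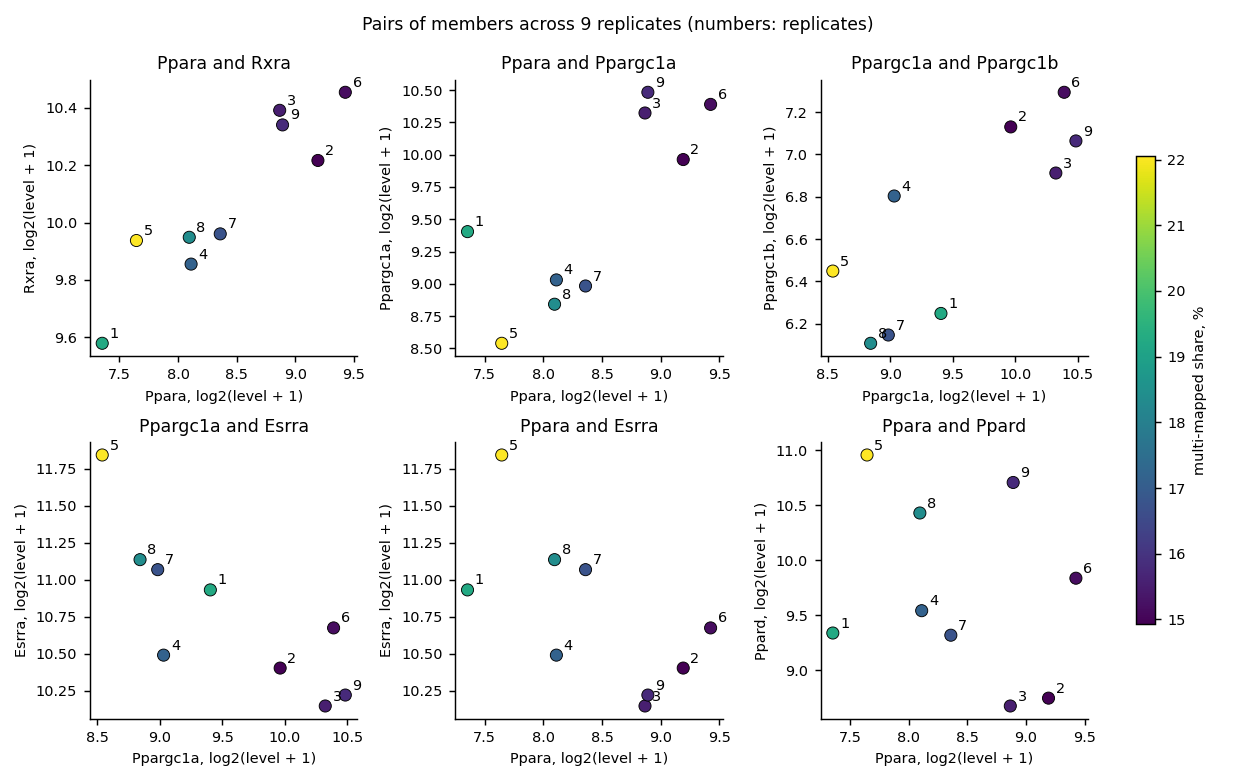
Each panel sets log2(level + 1) of 1 gene (horizontal) against another (vertical); a point is 1 replicate, numbered, and its colour gives the multi-mapped share in percent. Replicates 2, 3, 6 and 9 lie at the upper right for Ppara with Rxra (r = 0.920) and at the lower right for Ppargc1a with Esrra (r = -0.813), and Ppara with Ppard shows no such order (r = -0.289).

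Along the Ppara, Rxra, Ppargc1a and Ppargc1b axes, replicates 2, 3, 6 and 9 lie on one side and the other 5 opposite. Along the Esrra and Ppard axes the ranges of these sets overlap. The gap between these sets on the log2 scale was 24.5% of the range for Ppara, 29.3% for Rxra, 28.7% for Ppargc1a and 9.16% for Ppargc1b. For Rxra a wider gap, 31.6% of the range, lay between replicate 1 and the others. For Ppargc1b a wider gap, 29.9% of the range, lay between replicates 5 and 4, which put replicate 4 with the high ones. No r was computed inside these sets of 4 and 5 replicates, so whether the relations hold within each was not tested.

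Several of these genes also ran with the multi-mapped share. Ppara ran lower with it (r = -0.875, exact p = 0.000942, rho = -0.950, exact p = 0.000353, r = -0.926 without replicates 1 and 5, limma adjusted p = 0.00248). Ppargc1a did so too (r = -0.792, exact p = 0.00737, rho = -0.733, exact p = 0.0311, r = -0.860 without those 2, limma adjusted p = 0.00665). Esrra ran higher with it (r = 0.870, exact p = 0.00382, rho = 0.717, exact p = 0.0369, r = 0.679 without those 2, limma adjusted p = 0.00290). Rxra had r = -0.694 (limma adjusted p = 0.0512) and Ppargc1b r = -0.668 (limma adjusted p = 0.0657). Ppard had r = 0.560 (limma adjusted p = 0.107) and Pparg r = 0.394 (limma adjusted p = 0.281). The share of reads outside genes ran with 3 of them. Ppargc1a ran higher with it (r = 0.809, exact p = 0.000256, rho = 0.850, exact p = 0.00607, limma adjusted p = 0.00868), and r was 0.882 without replicates 5 and 8. Esrra ran lower with it (r = -0.892, exact p = 0.00251, rho = -0.883, exact p = 0.00308, limma adjusted p = 0.00546), and r was -0.607 without them. Ppard did too (r = -0.670, exact p = 0.0318, rho = -0.633, exact p = 0.0760, limma adjusted p = 0.0399), but r was -0.182 without those replicates, on which this relation rests. In all, 35% of the 13647 genes passed on the multi-mapped share, 29.1% on the share of reads outside genes and 0% on log2 reads in genes, where 1825 had an unadjusted p under 0.05. With the multi-mapped share as a covariate, 0 of the 21 pairs passed in limma, 3 had an unadjusted p under 0.05, and the slope of Ppara with Esrra changed sign to 0.25. Relations among the 7 genes and their relations to the share cannot be told apart in these 9 libraries.

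**Figure D3:**
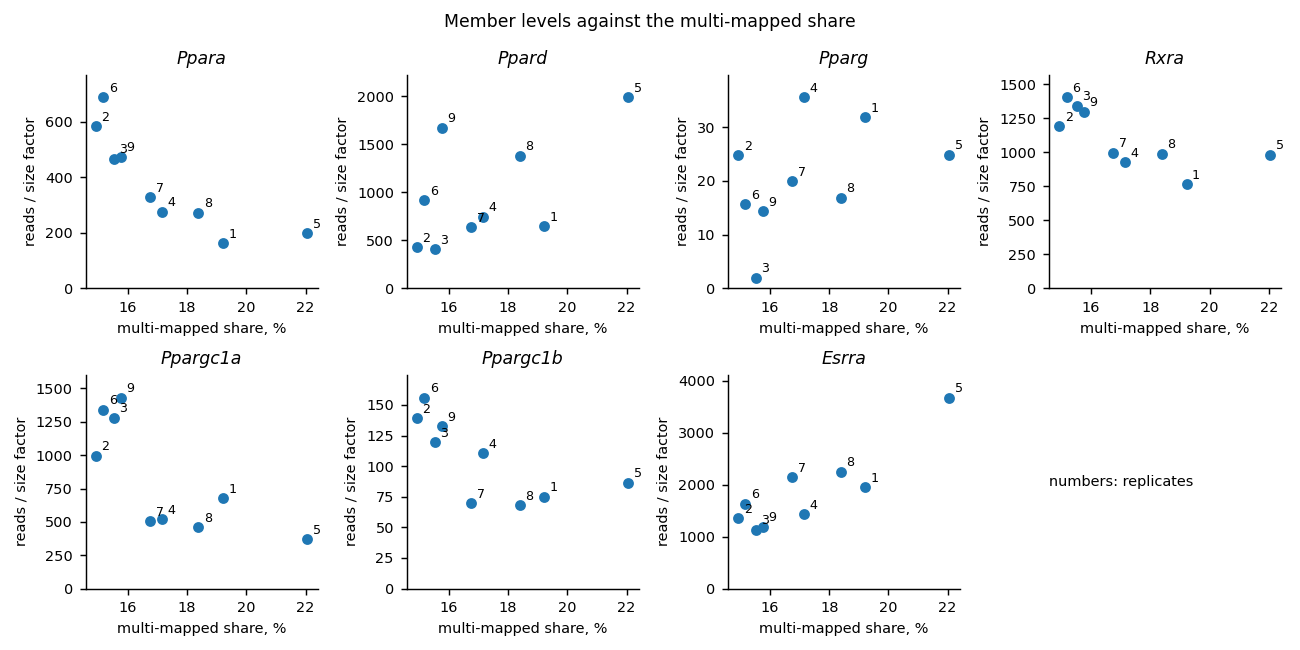
Level of each gene in reads divided by the size factor (vertical axis, from 0) against the multi-mapped share in percent (horizontal axis), 1 numbered point per replicate. Ppara (r = -0.875) and Ppargc1a (r = -0.792) lie lower at higher shares and Esrra (r = 0.870) lies higher, with replicate 5 at the right end at 22.1%.

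The 10 genes with the smallest p of the limma slope on Ppara were the potassium channel gene Kcnj15, Slc4a4 (the basolateral bicarbonate cotransporter of proximal tubule), Sgpp1 (a sphingosine phosphate phosphatase), Hykk (hydroxylysine kinase), Slc16a14, Slc16a12 (a creatine transporter), Ptprd, Ccdc6, Ppp1r16b and Dmxl2. Kcnj15 spanned 994 to 4804 (median 2173) and gained 0.80 ± 0.06 log2 units per SD of Ppara (SE, limma adjusted p = 6.15e-05). Its r with Ppara was 0.992 over the 9 replicates, followed by Sgpp1 at 0.986 and Prkca at 0.978. These were the highest among genes with an assigned symbol and a mean of at least 100. Slc4a4 gained 1.23 ± 0.09 log2 units per SD of Ppara (SE, limma adjusted p = 6.15e-05). In all, 1836 genes (13.5%) ran higher and 1096 (8.03%) lower with Ppara. That total of 2932 fell to 727 without replicate 5, to 1671 without replicate 9 and to 1854 without replicate 8. No gene passed with the multi-mapped share as a covariate, where 505 had an unadjusted p under 0.05.

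On Ppargc1a the smallest p belonged to Hipk3 (a protein kinase), Crebrf, Xiap (an inhibitor of apoptosis), Kat6a and Ash1l (chromatin enzymes), Lrp6 (a Wnt co-receptor), Ubr1 (a ubiquitin ligase), Ncoa2 (a nuclear receptor coactivator), Edem3 and Ptprj. Hipk3 spanned 204 to 1328 (median 450.4) and gained 1.01 ± 0.06 log2 units per SD of Ppargc1a (SE, limma adjusted p = 2.68e-06). It passed with the multi-mapped share as a covariate as well, at a limma adjusted p of 0.00487. The genes with the highest r, under the same filter, were Foxn2 at 0.995, Mgat5 at 0.994 and Arfgef2 at 0.994. In all, 2750 genes (20.2%) ran higher and 2625 (19.2%) lower. With libraries scaled to the same total the split was 3402 higher (24.9%) and 1356 lower (9.94%). The total of 5375 came to 2945 without replicate 5 and to 287 with the share as a covariate, of which 284 (2.08%) ran higher and 3 (0.022%) lower.

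The other 5 genes had their own nearest neighbours, by r over the 9 replicates among genes with an assigned symbol and a mean of at least 100. For Rxra they were Mlec (0.991), Snx30 (0.973) and Cdh6 (0.968), and for Ppargc1b Hif1an (0.973), Tnfsf10 (0.967) and Slc37a3 (0.959). Esrra was nearest to Necap2 (0.990), Fbxl15 (0.990) and Timm10b (0.990). Pparg, at its low counts, was nearest to Ndufaf6 (0.946), Chrnb1 (0.941) and Dcp1b (0.919). Like Pparg, these neighbours were all lowest in replicate 3 (Ndufaf6 159, Chrnb1 65.7 and Dcp1b 69.7), so these r lean on that library. No gene passed a limma slope on Pparg (0%, with 1517 at an unadjusted p under 0.05). Without replicate 3, which held 1 Pparg read, 11 genes passed on Pparg, and without replicate 4, 1 gene.

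Ppard was nearest to Cdkn1a (0.959), Gadd45g (0.948) and Creb3l1 (0.943). Only 6 genes (0.044%) passed limma's slope on Ppard, all named here after their values were seen. Running higher were 5 (0.0366%), Cdkn1a (the cell cycle inhibitor p21), Ddit4l2, Nfil3 (a repressor in the circadian clock output), Gadd45g (a growth arrest gene) and Tagln (a smooth muscle actin binder), and running lower was 1 (0.00733%), the clock gene Per3. Cdkn1a spanned 117 in replicate 3 to 846 in replicate 5 (median 278), with a slope of 0.82 ± 0.10 log2 units per SD of Ppard (SE, limma adjusted p = 0.0223). Per3 spanned 114 in replicate 5 to 901 in replicate 2 (median 366), with a slope of -0.999 ± 0.12 (SE, limma adjusted p = 0.0223). These calls rest on few libraries: 0 genes were called by limma without replicate 3, 5 or 8 (844, 410 and 531 genes at an unadjusted p under 0.05), 1 without replicate 2, 3 without replicate 1 or 6, 4 without replicate 4, and 16 genes were called without replicate 9. None was called by limma with libraries scaled to the same total (815 at an unadjusted p under 0.05) or with library size as a covariate (533), while 6 were with the multi-mapped share as a covariate. The clock receptor gene Nr1d1 lay at 1309, 1321 and 1346 in replicates 1, 2 and 3 and at 110 to 243 in the other 6. Ppard lay at 647, 429 and 408 in those 3 and at 638 to 1988 in the other 6, so its ranges overlapped. Nr1d1 did not pass limma's slope on Ppard, and a link of Ppard to the clock was not tested.

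PPAR target genes were the first group set beside the receptors. Of 40 listed, 37 were in the table and 35 passed the minimum mean, with Fgf21 and Ucp3 below it. On Ppara 1 ran higher and 1 lower (5.71% of the 35, beside 21.5% of all genes). Cd36, a fatty acid transporter, ran higher by 0.33 ± 0.09 log2 units per SD of Ppara (SE, limma adjusted p = 0.0237), from 254 in replicate 5 up to 615 in replicate 2. Ucp2, a mitochondrial carrier, ran lower by a slope of -0.27 ± 0.08 (SE, limma adjusted p = 0.0398). The median r of the list with Ppara was 0.206, beside -0.0784 for all genes.

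Most of the classic oxidation genes did not pass on Ppara. Cpt1a, which admits fatty acids to mitochondria, had r = 0.926 with Ppara (exact permutation p = 0.000292, r = 0.865 without replicates 1 and 6). Its whole range was only 8576 to 11759 and its slope 0.13 ± 0.06 log2 units per SD (SE, limma adjusted p = 0.119). Ehhadh, a peroxisomal oxidation enzyme, had r = 0.642 (exact p = 0.0184) and a limma adjusted p of 0.123, and r was 0.155 without replicates 1 and 6. Replicate 1 was its low value at 38439, where the next lowest was 72267. Replicate 1 also decided the sign of the list's median, which was -0.378 without it, with 1 gene higher and 5 lower (Ucp2, Acadvl, Slc25a20, Ech1 and Creb3l3). The low proximal tubule markers of that replicate were given above, and their part in this was not tested. Cd36 did not pass without replicate 2 or 5, and Ucp2 did not without replicate 2, 3, 5, 7, 8 or 9, so that 0 of the 35 passed in limma without replicate 2 (6 at an unadjusted p under 0.05) or 5 (again 6).

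On Ppargc1a, 1 of the 35 PPAR targets ran higher and 6 lower (20%, beside 39.4% of all genes). Cd36 was the higher one, at 0.27 ± 0.10 log2 units per SD (SE, limma adjusted p = 0.0386). The lower ones were Ucp2, Angptl4 (an inhibitor of lipoprotein lipase), Creb3l3 (a transcription factor of fasting), the peroxisomal and mitochondrial oxidation enzymes Ech1 and Acaa1a, and Cpt1b. Angptl4 spanned 2413 in replicate 3 to 7721 in replicate 8 (median 4470), with a slope of -0.42 ± 0.10 (SE, limma adjusted p = 0.00450). The median r of the list was -0.232, beside -0.0908 for all genes, and came to 0.0018 with libraries scaled to the same total (0.153 for all genes) and to -0.0383 with library size as a covariate. Without replicate 1 the counts were 1 higher and 11 lower, without replicate 5 they were 0 and 2, and without replicate 8 they were 0 and 4. With library size as a covariate 0 ran higher and 2 lower (Ucp2 and Creb3l3). With the multi-mapped share as a covariate 0 of the 35 passed on Ppargc1a in limma.

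Targets of PGC-1 and ERR, mostly mitochondrial, numbered 20, of which 18 were measured. On Ppara only Cs (citrate synthase) passed, higher (5.56%, beside 21.5%), and it no longer passed without replicate 3, 4, 5, 6, 7, 8 or 9. Without replicate 1, Cs passed higher on Ppara and 6 genes lower. On Ppargc1a Cs ran higher and 4 genes ran lower (27.8%, beside 39.4%). Cs gained 0.21 ± 0.06 log2 units per SD of Ppargc1a (SE, limma adjusted p = 0.00887). The 4 were the respiratory chain subunits Cox4i1, Cox5b and Ndufb5 and the citric acid cycle enzyme Mdh2. Cox4i1 spanned 14362 in replicate 3 to 39287 in replicate 5 (median 20572), with a slope of -0.44 ± 0.09 on Ppargc1a (SE, limma adjusted p = 0.00190). The same 4 genes ran higher with Esrra, where 4 of the 18 passed higher and 0 lower. Of all genes 21% passed higher and 21.5% lower on Esrra, so the higher count was near the share of all genes. Cox5b did not pass on Esrra in 4 of the 9 fits that left out 1 replicate, nor on Ppargc1a without replicate 5, 6 or 8. Cox4i1 had r = 0.950 with Esrra and a slope of 0.47 ± 0.07 (SE, limma adjusted p = 0.000595). Replicate 5 was the highest in both. The list's median r with Ppargc1a was -0.231, beside -0.0908 for all genes. With libraries scaled to the same total it was 0.101, beside 0.153 for all genes. That scaling shifts the median gene by between -0.14 and 0.16 log2 units. With the multi-mapped share as a covariate 0 of the 18 passed on Ppargc1a in limma.

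**Figure D4:**
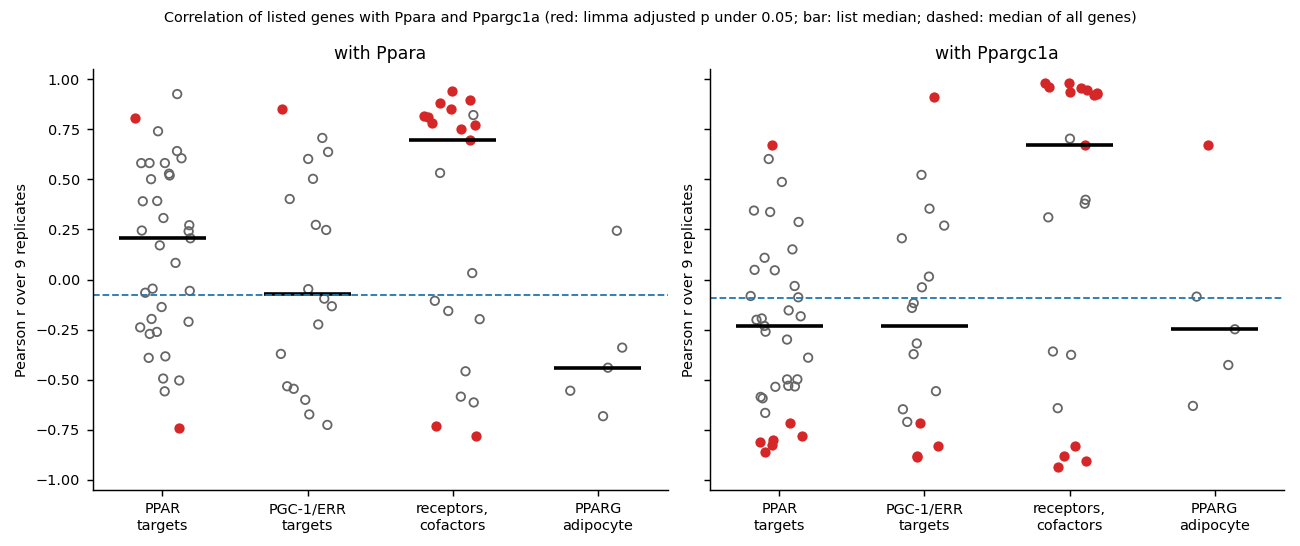
Pearson r over 9 replicates (vertical axis) of each tested gene of 4 lists (horizontal axis) with Ppara (left) and Ppargc1a (right); red points passed limma's slope at an adjusted p of 0.05, bars are list medians, and the dashed line is the median of all genes tested. Receptors and cofactors sit high, with medians of 0.697 and 0.673, while PPAR targets have medians of 0.206 and -0.232.

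Related receptors and cofactors were the list that ran most often with Ppara and Ppargc1a. Of 24 listed, 21 were measured. On Ppara 10 ran higher and 2 lower (57.1%, beside 21.5% of all genes), with a median r of 0.697. Higher were the AMP-activated kinase subunits Prkaa2 and Prkaa1, the coactivators Med1, Ncoa1, Ncoa2, Ncoa3, Crebbp and Lpin1, the corepressor Nrip1, and Esrrg. Lower were Rxrb and the liver X receptor Nr1h2. Without replicate 5, 4 ran higher (Nrip1, Med1, Prkaa2 and Ncoa2) and 0 lower, and without replicate 6, 6 ran higher and 0 lower. The count was 7 higher and 1 lower without replicate 3 or 8, and 6 and 1 without replicate 9.

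Prkaa2, the catalytic α2 subunit, stood at 243, 700, 752, 288, 201.3, 1285, 375, 280 and 972 in replicates 1 to 9. Its slope was 0.91 ± 0.11 log2 units per SD of Ppara (SE, limma adjusted p = 0.00163). Esrrg stood at 761, 1151, 1117, 520, 335, 1547, 680, 467 and 1108, highest in replicates 6, 2, 3 and 9. Rxrb stood at 970, 795, 581, 834, 1538, 600, 836, 981 and 597, highest in replicate 5 and lowest in replicates 3, 9 and 6. Its slope on Ppara was -0.35 ± 0.09 (SE, limma adjusted p = 0.0236).

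On Ppargc1a 10 of the 21 ran higher and 4 lower (66.7%, beside 39.4% of all genes), with a median r of 0.673. The 10 were the ones that ran higher with Ppara, and the 4 were Nr1h2, Nr1h3 (the other liver X receptor), Rxrb and Kat2a (an acetyltransferase that acts on PGC-1α). Ncoa2 spanned 124 in replicate 5 to 820 in replicate 6 (median 324), with a slope of 0.94 ± 0.07 log2 units per SD of Ppargc1a (SE, limma adjusted p = 9.08e-06). With the multi-mapped share as a covariate, Ncoa2, Prkaa1, Med1 and Ncoa3 passed on Ppargc1a and 0 of the 21 on Ppara (limma, 1 at an unadjusted p under 0.05).

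**Figure D5:**
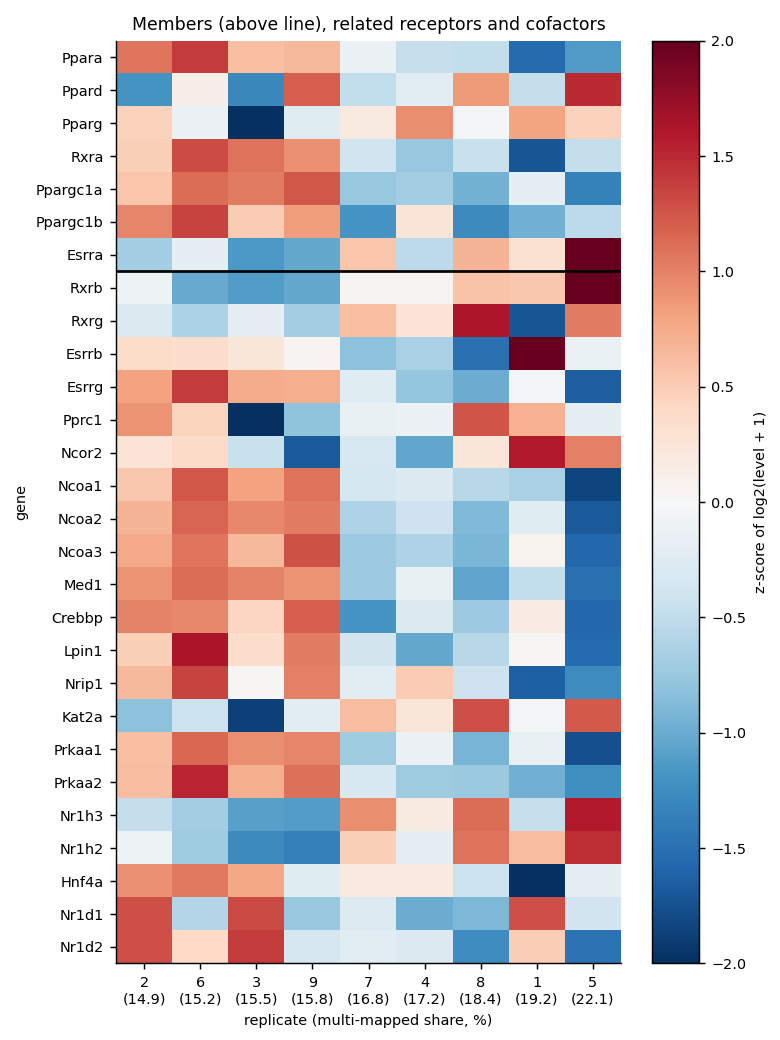
Z-score of log2(level + 1) (colour, -2 to 2) of the 7 genes (above the line) and 21 related receptors and cofactors (rows) in 9 replicates (columns), ordered from left to right by the multi-mapped share in percent, printed below each. Ppara, Rxra, Ppargc1a and Ppargc1b share high values in the 4 leftmost replicates (14.9% to 15.8%) with Ncoa1, Ncoa2, Ncoa3, Med1 and Esrrg, while Esrra, Rxrb and Nr1h2 are highest in replicate 5 (22.1%).

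Adipocyte genes under Pparg were few. Of 8 listed, 5 passed the minimum mean, and Plin1, Lep and Retn did not. Adipoq, the adipocyte hormone adiponectin, averaged 334 ± 64.6 and Cidec 509 ± 250 (SD, n = 9), while Lep averaged 1.40 ± 1.13. On Ppara 0 of the 5 passed in limma (1 at an unadjusted p under 0.05), but Cidec ran lower without replicate 2. On Ppargc1a Lpl, the lipoprotein lipase gene, ran higher (slope 0.22 ± 0.08, SE, limma adjusted p = 0.0451), which was 1 of the 5 (20%, beside 39.4% of all genes). Lpl no longer passed without replicate 3, 5, 6, 7, 8 or 9, with library size or the multi-mapped share as a covariate, or in edgeR. On Pparg 0 of the 5 passed in limma (1 at an unadjusted p under 0.05).

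Markers of cortical cell types were set beside Ppara and Ppargc1a, and most did not pass. On Ppara, beside 21.5% of all genes, 1 of 7 proximal tubule markers ran higher (14.3%, Slc5a12, a lactate transporter), with a median r of -0.061. Of 4 principal cell markers 2 ran lower (50%, the sodium channel subunit Scnn1b and Hsd11b2). Neither passed with libraries scaled to the same total (limma, 2 at an unadjusted p under 0.05), without replicate 5 or without replicate 1, where Scnn1g ran higher instead. Hsd11b2 also failed without replicate 2, 3, 7, 8 or 9. Of 6 macrophage markers 1 ran lower (16.7%, the complement gene C1qc), though not without replicate 2 or 5. None of 3 thick ascending limb, 4 adipocyte and 3 skeletal muscle markers passed limma's slope on Ppara. At an unadjusted p under 0.05 there were 1, 1 and 0. However, Mylpf ran lower without replicate 1, and the adipocyte marker Cidec ran lower without replicate 2.

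On Ppargc1a, beside 39.4% of all genes, 1 of 7 proximal tubule markers ran lower (14.3%, the phosphate transporter Slc34a1), though not without replicate 3, 5, 8 or 9. Without replicate 1, 1 of these markers ran higher and 5 lower. Of 6 macrophage markers 2 ran lower (33.3%, C1qc and Cd68), where Cd68 did not pass without replicate 5 or with libraries scaled to the same total. Of 3 skeletal muscle markers 1 ran lower (33.3%, Mylpf), though not without replicate 5, 8 or 9. Slc34a1, C1qc, Cd68 and Mylpf did not pass with the multi-mapped share as a covariate. None of the thick ascending limb, principal cell and adipocyte markers passed limma's slope on Ppargc1a (1, 0 and 1 at an unadjusted p under 0.05). However, without replicate 1 Scnn1g and Scnn1b passed, in opposite directions. Slc12a1, a thick ascending limb marker, ran higher without replicate 1 or 4 and with libraries scaled to the same total. The sum over proximal tubule markers ranged from 148974 in replicate 1 to 303554 in replicate 8, and that over principal cell markers from 10191 in replicate 9 to 25809 in replicate 1. Over macrophage markers it ranged from 5715 in replicate 3 to 8569 in replicate 1, over adipocyte markers from 691 in replicate 9 to 1440 in replicate 1, and over skeletal muscle markers from 27.2 in replicate 2 to 84.2 in replicate 5. Their part in the relations above was not tested.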

How the data were processed

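Stranded mRNA libraries of flash-frozen kidney cortex were sequenced for 9 replicates of 1 group, per the labels' protocols. The submitters' processing notes name HTSeq 0.6.1p1, DESeq2, FastQC 0.11.2, MultiQC 0.9 and the build Rnor_5.0; no aligner is named there, and it is not given in the sources used here. Deposited signal values are gene read counts divided by a size factor, made by the authors. Whole reads were recovered from it: 100% of values lay within 0.1 read of a whole number. The 3 rows that name no gene were left out of tests; reads outside genes made 22.0% to 31.3% of counted reads.

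Every gene with a mean of at least 10 was fitted as log2(value + 1) on the z-scored log2 level of each of the 7 genes, with limma 3.58.1 (robust trend, R 4.3.3) and Benjamini-Hochberg adjustment over all genes. Correlations used exact two-sided permutation over all pairings (scipy). Count fits with edgeR 4.0.16 and DESeq2 1.42.0 on recovered reads, other pseudocounts, filters, scalings and covariates, and fits leaving out 1 replicate were alternatives. Fits on library measures were added after the values were seen. The scripts were tested on simulated data. No 2 libraries agreed within sampling noise (chi-square per degree of freedom 18.3 to 181 over 36 pairs). The 7 genes and all lists were chosen with earlier results of these data known. Named genes were the 7 and the 4 most abundant and up to 4 called genes of each list. The 3 nearest genes of each of the 7 by r and the 10 smallest p on Ppara and Ppargc1a were also named. Nearest genes were sought among those with an assigned symbol and a mean of at least 100, without placeholder or duplicated names. Further names were chosen after their values were seen. Sequences came from RefSeq tables on GRCr8, a build other than that of the reads.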

Additional observations from a re-analysis of the deposited data

Results flagged for a closer look

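Among 74 named genes, 3 had a replicate far from the other 8 by Dixon's criterion, which chance gives in about 1 in 20 groups. Esrra was highest in replicate 5, at 3677, with the next value at 2251. Fbxl15, among the nearest genes to Esrra, was also highest in replicate 5, at 453. Ehhadh, a peroxisomal fatty acid oxidation enzyme and PPAR target, was lowest in replicate 1, at 38439.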

How the results depend on the processing

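With the multi-mapped share as a covariate, 0 genes passed on Ppara, 287 on Ppargc1a and 0 pairs, the slope of Ppara with Esrra was 0.254 in place of a negative one, and the median r was 0.155 for cofactors with Ppara, 0.333 for cofactors with Ppargc1a, -0.387 for PGC-1 and ERR targets with Ppargc1a and 0.139 for adipocyte genes with Ppargc1a. With library size as a covariate, 3390 genes passed on Ppargc1a and the cofactor median was 0.522. With the same total per library the PGC-1 and ERR median with Ppargc1a was 0.101, beside 0.153 for all genes. Leaving out 1 replicate gave 727 to 4248 genes on Ppara, 2945 to 5959 on Ppargc1a, 6 to 8 pairs, and medians for PPAR targets of -0.378 to 0.312 with Ppara and -0.504 to -0.153 with Ppargc1a. The cause was not tested. On the recovered reads edgeR called 2984 genes on Ppara and 5361 on Ppargc1a, and DESeq2 4036 and 5769. For single pairs and named genes, 1609 alternatives kept the side of the threshold, 100 lost the call, 15 gained it and 1 reversed a called direction. Where the main fit did not pass, a change of sign was not counted as a reversal. Levels per transcript length were not run, since no transcript lengths were used here. No paired analysis was possible because there was only 1 group. Depth limits Pparg most, at 1 to 54 reads per library.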
